A study of Mus musculus with 4 samples.

Results

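Interferon-stimulated genes are the transcripts that cells raise when interferons bind their receptors. Here 31 of them were followed across the endothelial and the other cells of mouse kidney libraries from a pair of hypertension models, out of 11049 genes listed in all 3 library tables. The 31 were taken as a named list of genes present in all 3 tables, so a gene missing from any table could not be on it. None of the 31 was left out for a low count. The angiotensin II hypertension group (A2 HTN) had hypertension brought on by that pressor hormone, and its control (A2 Ctrl) received saline. The salt-sensitive hypertension group (SS HTN) had a control on a normal diet (SS Ctrl), and the sources used here do not give how salt-sensitive hypertension was brought on. All 4 groups were C57BL/6J mice of 10 to 14 weeks. Kidneys of each group were pooled, dissociated and selected magnetically with antibodies to CD31, an endothelial surface protein, and then to podoplanin, which lymphatic endothelium and some epithelia carry. Each pool gave 1 droplet library made from the 3' ends of transcripts, so no group has a replicate, no difference was tested, and every interval below is a 95% exact interval for counting error only. The control libraries are told apart by their barcode ending, but the sources used here do not tie either to a model. They are called control library 1 and control library 2, were summed for the comparisons, and are also given each alone.

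Type I interferon binds the receptor chains IFNAR1 and IFNAR2, and interferon gamma binds IFNGR1 and IFNGR2. Janus kinases on the receptors then phosphorylate STAT proteins. STAT2 and IRF9 are parts of the complex ISGF3, which binds the interferon-stimulated response element (ISRE) in promoters, while STAT dimers bind the gamma-activated site (GAS). The genes switched on in this way encode sensors of viral RNA, proteins that block virus entry and release, GTPases that attack vacuoles holding pathogens, and feedback inhibitors. Endothelial cells line every kidney vessel, carry both kinds of receptor and keep some of these genes on without infection.

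Cells were called endothelial when the 4 genes Pecam1, Cdh5, Kdr and Tie1 together gave at least 3 UMIs (unique molecular identifiers, which count captured transcripts) and at least 12 in 10000 of the cell's UMIs. This held for 1225 of 2837 A2 HTN cells (43.2%) and 1519 of 3284 SS HTN cells (46.3%). It held for 19 of 2406 cells of control library 1 (0.790%) and 126 of 2008 cells of control library 2 (6.27%). Endothelial sums held 5525341 UMIs in A2 HTN and 3965775 in SS HTN, against 34358 in control library 1 and 343076 in control library 2, so that library 2 gave 90.9% of the control endothelial UMIs. Control library 1 stands apart, since its 19 cells held 8237 counts per 1000000 UMIs (CPM) of tubule markers, against 451, 865 and 816 CPM in endothelial cells of A2 HTN, SS HTN and control library 2. The median endothelial cell had 4734 UMIs in A2 HTN and 2343 in SS HTN, against 1995 and 2809.5 in control libraries 1 and 2. Any pair of libraries shared 0 to 2 cell barcodes. Of 10 lymphatic markers 5 were held. Prox1, the master transcription factor of lymphatic endothelium, was nearly absent, with 12 UMIs in A2 HTN and 32 in SS HTN endothelial cells, against 0 in either control library. The other 4, Flt4, Sema3d, Nrp2 and Itga9, gave 385 to 1330 UMIs each in A2 HTN and 248 to 757 in SS HTN, against 0 to 3 and 29 to 80 in control libraries 1 and 2, and blood vessel endothelium can also carry Flt4 and Nrp2. The genes below were followed in endothelial cells as a whole. Levels are CPM over the shared genes and were not divided by gene length, because a 3' library gives 1 UMI per captured transcript whatever its length. A count of 0 in the endothelial cells of control library 1 allows up to 3 UMIs, or 87.3 CPM.

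The promoters of many of these genes carry the element that ISGF3 binds. RefSeq promoters of mouse build GRCm38.p6, from 250 bases before to 50 after each start, were found for 24 of the 31 genes. Usp18, Ifi27l2a, Ly6a, Ly6e, Iigp1, Parp14 and Rtp4 had no entry. The ISRE core, GAAA and GAAA with any 2 bases between (GAAA NN GAAA), searched on both strands, lay in the promoters of 14 of the 24 genes (58.3%), against 1079 of all 27025 genes (3.99%). The GAS letters TTCNNNGAA, which read the same on both strands, lay in 7 of the 24 (29.2%), against 9.55% of all genes. Bst2, Gbp7, Ifitm3 and Igtp held both, and in 2 of these the motifs overlapped. A match is a run of letters and not a shown binding site. The windows below come from the gene with an ISRE core and the most endothelial UMIs in each of 6 roles. These genes encode a sensor, a modifier, an antiviral enzyme, a membrane protein and members of a pair of GTPase families. The windows were chosen by their match to the core, so the likeness of their capitals was set by the search. Each is 26 bases read 5′ to 3′ on the gene's strand, with the core in capitals as GAAA NN GAAA or as its reverse complement TTTC NN TTTC. Ddx58 lies on the minus strand at chr4:40239806-40239831, Isg15 on the minus strand at chr4:156200879-156200904, and Rsad2 on the minus strand at chr12:26456555-26456580. Ifitm3 lies on the minus strand at chr7:141010725-141010750, Gbp7 on the plus strand at chr3:142530275-142530300, and Irgm1 on the minus strand at chr11:48871433-48871458.
Ddx58: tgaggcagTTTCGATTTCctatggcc
Isg15: tgccgtagGAAAAGGAAAccgaaaca
Rsad2: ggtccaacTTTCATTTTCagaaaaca
Ifitm3: aaattcagGAAAAGGAAActtctgag
Gbp7: gtgtgcagTTTCAGTTTCagttctcc
Irgm1: tgtttcaaGAAATAGAAAccgaaact
The first capital lies 78 bases before the start of Isg15, 120 before that of Rsad2, 53 before that of Gbp7 and 30 before that of Irgm1. In Ddx58 and Ifitm3 the first capital lies 2 bases past the start. Isg15 holds 3 overlapping cores, of which the first is in capitals, and Irgm1 holds 2 overlapping ones. Ifitm3 holds a further core, not in capitals, whose first base lies 19 bases past the start.

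Summed over all endothelial cells of a library, the level of these genes was highest in A2 HTN. Summed over the 31 genes, the level was 19271 CPM in A2 HTN and 13806 CPM in SS HTN cells, against 8673 CPM in control library 1 (298 UMIs) and 15058 CPM in control library 2 (5166 UMIs). The SS HTN level thus lay between those of the control libraries, and the A2 HTN level lay above both. This did not hold within the capillary marker class described below. There control library 1 had 20039 CPM in 5 cells, level with 20158 CPM in A2 HTN. Differences are given as the log2 ratio of CPM + 5, so that the ratio of a low gene is drawn towards 0. A gene is described where the groups compared gave 20 or more UMIs together, and a ratio of 0.5 or more in size is called. The interval printed after a ratio is that of the plain ratio without the 5 added.

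Over the summed controls, 30 of the 31 genes were higher in A2 HTN endothelial cells, with a median log2 ratio of 0.43, where the median of all genes was -0.02. Of the 31, 13 were called higher and 0 lower, while 11.8% of all 10225 genes described were called higher and 14.2% lower. The 31 were chosen with earlier results of these data known. Their counts here and in the comparisons below are thus descriptive and do not stand as independent support. The 13 were Gbp2, Gbp3, Ifit1, Ifit2, Ifit3, Oasl2, Ifi27l2a, Ifi47, Irf7, Irf9, Parp14, Ly6e and Usp18. Within capillary-class cells alone 7 were called higher, against 15.8% of all genes there, and 8 without tubule-rich and the deepest cells, against 16.8%. The 12 endothelial markers that the cell rule did not use had a median of 0.23 in the same comparison, with 1 called higher and 1 lower.

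In SS HTN endothelial cells the genes lay on both sides of the summed controls. The median log2 ratio over the summed controls was -0.15, against -0.01 for all genes, and 13 of 31 lay above the controls. Of the 31, 1 was called higher, Ifi27l2a, and 4 were called lower, Igtp, Irgm1, AW112010 and Ifi35, while 13.9% of all 10282 genes described were called higher and 13.7% lower. The share called lower was thus near that of all genes and the share called higher was under it. The median depends on the control cells, since it was 0.13 with a looser endothelial rule and 0.89 over control library 1 alone, where 22 genes were called higher against 40.1% of all genes. The marker list had a median of -0.20, with 1 of 12 called in each direction.

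Between the models, 29 of 31 genes were higher in A2 HTN than in SS HTN endothelial cells, with a median log2 ratio of 0.47 against -0.03 for all genes. Of the 31, 15 were called higher and 1 lower, Ifi27l2a, while 5.27% of all 10698 genes described were called higher and 9.83% lower. This comparison rests on the deepest sums and uses no control cell. The marker list was also higher in A2 HTN, with a median of 0.39 and 4 of 12 called, as was the capillary-class share of endothelial cells, at 85.5% in A2 HTN against 58.9% in SS HTN. Within capillary-class cells the median of the 31 genes was 0.28, with 29 of 31 higher in A2 HTN, against 48.6% of all genes described. The comparisons over the controls share their control cells, so their values stand side by side and are not set against each other as independent.

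**Figure D1:**
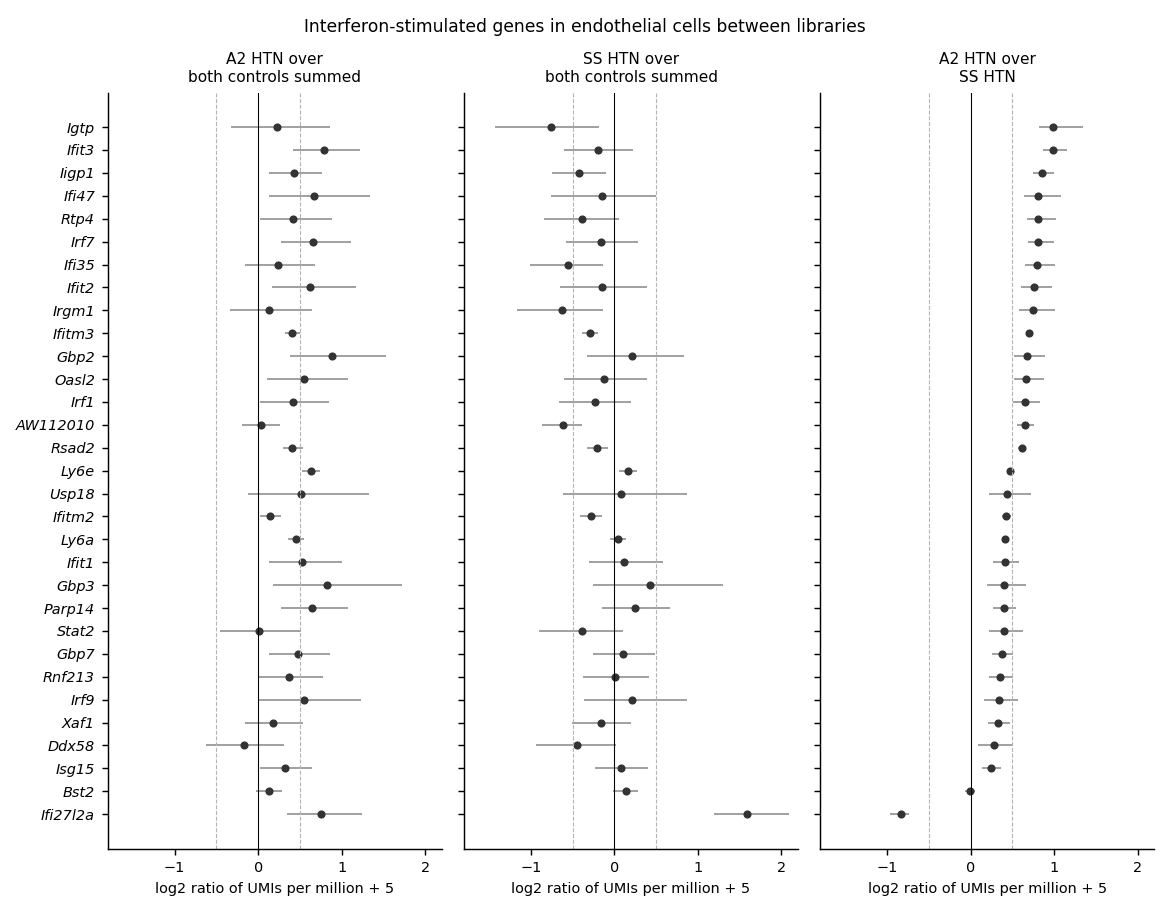
Each row is 1 of the 31 genes, ordered by its A2 HTN over SS HTN ratio, and each panel gives the log2 ratio of CPM + 5 in endothelial cells, with its 95% counting interval as a bar and dashed lines at 0.5 in size. In the right panel 29 genes lie above 0 and Ifi27l2a lies at -0.83, in the left panel 30 lie above 0, and in the middle panel Ifi27l2a stands apart at 1.58.

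A few abundant genes held most of the transcripts. Ly6a, Ifitm3 and Ly6e together gave 51.4% of the UMIs of the 31 genes in A2 HTN and 49.9% in SS HTN endothelial cells, against 52.3% in control library 1 and 48.4% in control library 2. With Rsad2, Ifitm2 and Bst2 the share came to 76.2% and 76.4%, against 78.9% and 76.2%. The same 6 genes led in every library, although their order differed. The other 25 genes summed to 4580.4 CPM in A2 HTN and 3262 CPM in SS HTN cells, against 1834 CPM in control library 1 and 3585 CPM in control library 2. The order of the libraries was therefore the same with and without the abundant genes.

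**Figure D2:**
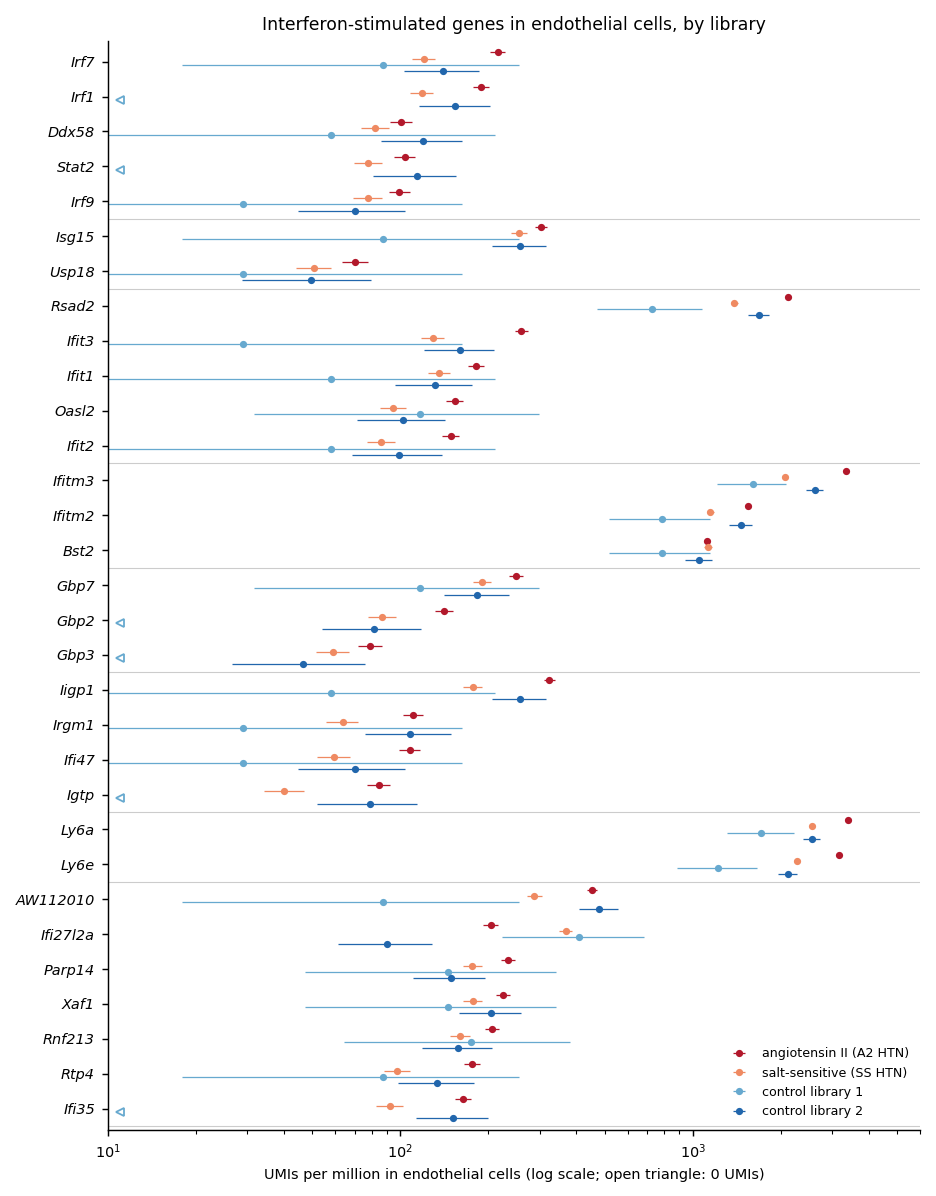
Points give the level of each gene in endothelial cells of each library in CPM on a log axis, grouped by role, with exact Poisson 95% intervals as bars and open triangles where a library had 0 UMIs. Ly6a, Ifitm3, Ly6e, Rsad2, Ifitm2 and Bst2 stand to the right of all others, and the bars of control library 1, with 19 cells, are the widest.

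The sensor and the transcription factors that run the response were low in abundance. Ddx58 encodes RIG-I, which senses viral RNA in the cytoplasm, and had 100.6 CPM in A2 HTN and 82.2 CPM in SS HTN cells, against 58.2 CPM in control library 1 (2 UMIs) and 119.5 CPM in control library 2 (41 UMIs). Stat2, the STAT particular to ISGF3, had 104 CPM in A2 HTN and 77.7 CPM in SS HTN cells, against 0 UMIs in control library 1 and 114 CPM in control library 2 (39 UMIs). Irf9, the DNA-binding partner in that complex, had 99.4 CPM in A2 HTN and 77.4 CPM in SS HTN cells, against 29.1 CPM in control library 1 (1 UMI) and 70.0 CPM in control library 2 (24 UMIs). Control library 2 was highest for Ddx58 and Stat2, and A2 HTN was highest for Irf9. Irf7, a transcription factor that is itself induced and then amplifies type I interferon production, had 215 CPM in A2 HTN and 121 CPM in SS HTN cells, against 87.3 CPM in control library 1 (3 UMIs) and 139.9 CPM in control library 2 (48 UMIs). Irf1, a transcription factor induced strongly by interferon gamma, had 189 CPM in A2 HTN and 119 CPM in SS HTN cells, against 0 UMIs in control library 1 and 154 CPM in control library 2 (53 UMIs). For both, A2 HTN lay above every other library and SS HTN lay below control library 2. The log2 ratio of Irf7 was 0.65 (0.27 to 1.11) in A2 HTN over the controls, -0.16 (-0.58 to 0.28) in SS HTN over the controls and 0.81 (0.68 to 0.99) in A2 HTN over SS HTN. Irf1 gave 0.41 (0.03 to 0.85), -0.24 (-0.66 to 0.19) and 0.65 (0.51 to 0.83) in the same order. The role median was 0.41, -0.24 and 0.40, and all 5 genes were higher in A2 HTN than in SS HTN cells.

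Isg15, on chromosome 4, encodes a small ubiquitin-like protein that is linked to other proteins, and Usp18, on chromosome 6, encodes the protease that removes it and also dampens the type I receptor. Isg15 had 302 CPM in A2 HTN and 255 CPM in SS HTN cells, against 87.3 CPM in control library 1 (3 UMIs) and 257 CPM in control library 2 (88 UMIs). Usp18 had 70.0 CPM in A2 HTN and 50.7 CPM in SS HTN cells, against 29.1 CPM in control library 1 (1 UMI) and 49.6 CPM in control library 2 (17 UMIs). Both were highest in A2 HTN cells and nearly level between SS HTN cells and control library 2. The ratio of A2 HTN over SS HTN was 0.24 (0.13 to 0.36) for Isg15 and 0.43 (0.22 to 0.72) for Usp18, under the size called for either. Isg15 gave at least 1 UMI in 42.6% of A2 HTN and 29.3% of SS HTN endothelial cells at their own depths.

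Among the direct antiviral effectors, Rsad2 led. It encodes viperin, an enzyme that makes a chain-terminating nucleotide and blocks viral RNA synthesis, and it had 2124 CPM in A2 HTN and 1387 CPM in SS HTN cells, against 728 CPM in control library 1 (25 UMIs) and 1685 CPM in control library 2 (578 UMIs). It held 11.02% of the UMIs of the 31 genes in A2 HTN and 10.0% in SS HTN cells, against 8.39% and 11.2% in control libraries 1 and 2. The A2 HTN level lay above both controls, and the SS HTN level lay between them. Its log2 ratio was 0.41 (0.29 to 0.53) in A2 HTN over the controls, -0.20 (-0.33 to -0.08) in SS HTN over the controls and 0.61 (0.57 to 0.66) between the models.

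Ifit1, Ifit2 and Ifit3, which lie side by side on chromosome 19 between positions 34550694 and 34650009, encode proteins with tetratricopeptide repeats that bind foreign RNA or one another. Ifit1 had 182 CPM in A2 HTN and 136 CPM in SS HTN cells, against 58.2 CPM in control library 1 (2 UMIs) and 131 CPM in control library 2 (45 UMIs). Ifit2 had 149 CPM in A2 HTN and 86.0 CPM in SS HTN cells, against 58.2 CPM in control library 1 (2 UMIs) and 99.1 CPM in control library 2 (34 UMIs). Ifit3, whose reads may be shared with a near-identical copy, had 259.7 CPM in A2 HTN and 129 CPM in SS HTN cells, against 29.1 CPM in control library 1 (1 UMI) and 160.3 CPM in control library 2 (55 UMIs). Each was highest in A2 HTN cells and lowest in control library 1. Oasl2, an OAS-like protein that stands apart in holding ubiquitin-like domains, had 153 CPM in A2 HTN and 94.8 CPM in SS HTN cells, against 116 CPM in control library 1 (4 UMIs) and 102 CPM in control library 2 (35 UMIs), and here SS HTN cells were the lowest. Ifit3 differed most of the 5, with a ratio of 0.79 (0.42 to 1.22) in A2 HTN over the controls and 0.98 (0.86 to 1.16) in A2 HTN over SS HTN, against -0.19 (-0.60 to 0.22) in SS HTN over the controls. The role median was 0.55 in A2 HTN and -0.14 in SS HTN over the controls, and 0.67 between the models, where 4 of 5 were called.

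Membrane proteins that hinder viruses were abundant. Ifitm3, which blocks the fusion of viruses in endosomes, had 3350.2 CPM in A2 HTN and 2063 CPM in SS HTN cells, against 1601 CPM in control library 1 (55 UMIs) and 2612 CPM in control library 2 (896 UMIs). Ifitm2, its neighbour on chromosome 7 and close in sequence, had 1545 CPM in A2 HTN and 1148 CPM in SS HTN cells, against 786 CPM in control library 1 (27 UMIs) and 1457 CPM in control library 2 (500 UMIs). Bst2 encodes tetherin, which holds budding virus at the cell surface, and had 1120.3 CPM in A2 HTN and 1126 CPM in SS HTN cells, against 786 CPM in control library 1 (27 UMIs) and 1049 CPM in control library 2 (360 UMIs). Ifitm3 was called between the models, at 0.70 (0.66 to 0.74), whereas Ifitm2 gave 0.43 (0.38 to 0.48) and Bst2 gave -0.01 (-0.06 to 0.05). Bst2 was level across A2 HTN, SS HTN and control library 2, and it was the only gene of the 31 whose A2 HTN over SS HTN sign turned in any alternative run. Ifitm3 gave 0.41 (0.32 to 0.51) in A2 HTN and -0.29 (-0.39 to -0.19) in SS HTN over the controls, and Ifitm2 gave 0.15 (0.02 to 0.28) and -0.28 (-0.41 to -0.15).

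The guanylate-binding proteins and the immunity-related GTPases assemble on vacuoles that hold intracellular bacteria and parasites, and both families are known for their induction by interferon gamma. Gbp2 had 141 CPM in A2 HTN and 86.7 CPM in SS HTN cells, against 0 UMIs in control library 1 and 81.6 CPM in control library 2 (28 UMIs). Gbp3 had 79.1 CPM in A2 HTN and 58.8 CPM in SS HTN cells, against 0 UMIs in control library 1 and 46.6 CPM in control library 2 (16 UMIs). Gbp7 had 249 CPM in A2 HTN and 191 CPM in SS HTN cells, against 116 CPM in control library 1 (4 UMIs) and 184 CPM in control library 2 (63 UMIs). The 3 genes lie on chromosome 3 within a family of similar copies, so how shared reads were assigned may affect them, and for all 3 SS HTN cells lay slightly above control library 2. The ratios over the controls were 0.88 (0.39 to 1.53) for Gbp2 and 0.83 (0.18 to 1.72) for Gbp3 in A2 HTN, the highest of the 31 in that comparison, and 0.21 (-0.33 to 0.84) and 0.43 (-0.26 to 1.30) in SS HTN. Gbp7 stayed under the size called, at 0.47 (0.13 to 0.86) and 0.10 (-0.26 to 0.49).

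The immunity-related GTPases separated the models most. Iigp1, on chromosome 18, had 324 CPM in A2 HTN and 177 CPM in SS HTN cells, against 58.2 CPM in control library 1 (2 UMIs) and 257 CPM in control library 2 (88 UMIs). Irgm1, a regulator of the other members that guards host membranes, had 110.4 CPM in A2 HTN and 63.5 CPM in SS HTN cells, against 29.1 CPM in control library 1 (1 UMI) and 108 CPM in control library 2 (37 UMIs). Igtp, also named Irgm3, had 84.5 CPM in A2 HTN and 40.1 CPM in SS HTN cells, against 0 UMIs in control library 1 and 78.7 CPM in control library 2 (27 UMIs). Ifi47 had 108 CPM in A2 HTN and 59.3 CPM in SS HTN cells, against 29.1 CPM in control library 1 (1 UMI) and 70.0 CPM in control library 2 (24 UMIs). In all 4 the A2 HTN level lay above that of control library 2 and the SS HTN level lay below it. The 4 together had 627 CPM in A2 HTN and 339.9 CPM in SS HTN cells, against 116 CPM in control library 1 and 513 CPM in control library 2. All 4 were called higher in A2 HTN than in SS HTN, from 0.75 (0.58 to 1.01) for Irgm1 to 0.99 (0.81 to 1.34) for Igtp. In SS HTN over the controls all 4 lay below 0, with Igtp at -0.76 (-1.43 to -0.19) and Irgm1 at -0.62 (-1.16 to -0.13) called lower. In A2 HTN over the controls Ifi47 was called higher, at 0.66 (0.13 to 1.34).

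The Ly6 genes on chromosome 15 encode small proteins held on the cell surface by a lipid anchor. Ly6a, known as Sca-1, a marker of blood stem cells that mouse endothelium also carries, had 3397 CPM in A2 HTN and 2549 CPM in SS HTN cells, against 1717 CPM in control library 1 (59 UMIs) and 2556 CPM in control library 2 (877 UMIs). Ly6e, which restricts the entry of coronaviruses, had 3155 CPM in A2 HTN and 2271 CPM in SS HTN cells, against 1222 CPM in control library 1 (42 UMIs) and 2113 CPM in control library 2 (725 UMIs). A2 HTN was highest and control library 1 lowest for both, while SS HTN cells lay close to control library 2. Ly6e was called higher in A2 HTN over the controls, at 0.63 (0.53 to 0.74), and Ly6a gave 0.45 (0.36 to 0.55). Between the models Ly6e gave 0.47 (0.44 to 0.51) and Ly6a gave 0.41 (0.38 to 0.45).

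Ifi27l2a stood apart from the rest in SS HTN over the summed controls and between the models. This small interferon-induced membrane protein had 204 CPM in A2 HTN and 367 CPM in SS HTN cells, against 407 CPM in control library 1 (14 UMIs) and 90.4 CPM in control library 2 (31 UMIs). SS HTN cells and control library 1 were high, and A2 HTN cells and control library 2 were lower. The ratio was 1.58 (1.20 to 2.09) in SS HTN and 0.75 (0.35 to 1.24) in A2 HTN over the summed controls and -0.83 (-0.96 to -0.73) in A2 HTN over SS HTN. Both ratios over the controls rest on control library 2, since against control library 1 alone they were -0.15 in SS HTN and -0.98 in A2 HTN.

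Of the remaining 6 genes, AW112010, annotated as a long intergenic noncoding RNA on chromosome 19, was the most abundant and had 452 CPM in A2 HTN and 287 CPM in SS HTN cells, against 87.3 CPM in control library 1 (3 UMIs) and 478 CPM in control library 2 (164 UMIs). Ifi35, a partner of the interferon-induced protein NMI, had 164 CPM in A2 HTN and 92.0 CPM in SS HTN cells, against 0 UMIs in control library 1 and 152 CPM in control library 2 (52 UMIs). Rtp4, first described as a chaperone of receptors on their way to the cell surface, had 176 CPM in A2 HTN and 97.8 CPM in SS HTN cells, against 87.3 CPM in control library 1 (3 UMIs) and 134 CPM in control library 2 (46 UMIs). SS HTN cells lay below control library 2 for all 3, and AW112010 and Ifi35 were called lower in SS HTN over the controls, at -0.62 (-0.86 to -0.38) and -0.56 (-1.004 to -0.13). All 3 were called higher in A2 HTN than in SS HTN, from 0.65 (0.55 to 0.76) for AW112010 to 0.81 (0.67 to 1.02) for Rtp4. Xaf1, which binds the apoptosis inhibitor XIAP, had 225 CPM in A2 HTN and 177 CPM in SS HTN cells, against 146 CPM in control library 1 (5 UMIs) and 204 CPM in control library 2 (70 UMIs). Parp14, an enzyme that attaches single ADP-ribose units, had 234 CPM in A2 HTN and 177 CPM in SS HTN cells, against 146 CPM in control library 1 (5 UMIs) and 149 CPM in control library 2 (51 UMIs). Rnf213, a very large ubiquitin ligase linked to the vessel disease moyamoya in people, had 206 CPM in A2 HTN and 159.9 CPM in SS HTN cells, against 175 CPM in control library 1 (6 UMIs) and 157 CPM in control library 2 (54 UMIs). Of these, Parp14 was called in A2 HTN over the controls, at 0.64 (0.27 to 1.07), and Rnf213 differed least between SS HTN and the controls, at 0.01 (-0.38 to 0.42).

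The values over the controls depend on which control library is used. Summed over the 31 genes, the log2 ratio of A2 HTN was 1.15 (0.99 to 1.32) over control library 1 and 0.36 (0.32 to 0.40) over control library 2. For SS HTN it was 0.67 (0.51 to 0.84) over control library 1 and -0.13 (-0.17 to -0.08) over control library 2. The sign was thus the same for A2 HTN and turned for SS HTN. Control library 2 lay 0.80 (0.63 to 0.97) above control library 1, a wider gap than either hypertension library showed over control library 2. By gene, A2 HTN cells were above control library 1 for 30 of 31 genes, all but Ifi27l2a, and above control library 2 for 28, all but Ddx58, Stat2 and AW112010. SS HTN cells were above control library 1 for 28 genes, all but Ifi27l2a, Oasl2 and Rnf213, and above control library 2 for 11. Over control library 2 alone, 10 genes were called higher in A2 HTN, against 13.8% of all genes, and in SS HTN 1 was called higher and 7 lower, against 18.3% and 12.1%. Over control library 1 alone 28 were called higher in A2 HTN, against 41.1% of all genes. The model of origin and the sample cannot be told apart in these differences. Of the 19 cells of control library 1, 12 were of no marker class, as sorted below. They held 13839 CPM of tubule markers and 5311 CPM of the 31 genes. The 5 capillary-class cells held 927 and 20039 CPM, against 618 and 16572 CPM in those of control library 2. The part of the tubule transcripts in these differences was not tested.

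Cells outside the endothelial rule gave a different order. Their summed level was 3233 CPM in A2 HTN and 2861 CPM in SS HTN, against 941 CPM in control library 1 and 1657 CPM in control library 2. Both hypertension libraries lay above both controls. The median log2 ratio over the summed controls was 0.84 in A2 HTN, where 24 of 31 genes were called higher and 0 lower against 11.1% and 6.6% of all genes. In SS HTN it was 0.66, where 20 were called higher and 0 lower against 9.21% and 3.29% of all genes. Between the models the median was 0.08, with 7 called higher and 2 lower against 4.72% and 4.56%. The endothelial markers not used by the rule moved with these values in the same cells. All 12 were called higher in either hypertension library over the controls, with medians of 1.49 in A2 HTN and 1.20 in SS HTN, and the sum of the 12 was 2219 CPM in A2 HTN and 2100.4 CPM in SS HTN, against 848 and 945 CPM in control libraries 1 and 2. Other cells of no marker class, described below, gave 2693 of the 6013 UMIs of the 31 genes in A2 HTN. They gave 3258 of 6988 in SS HTN, against 34 of 2578 and 490 of 2270 in control libraries 1 and 2. Endothelial RNA in other cells and their own transcription were not told apart, and the part of the markers in the result was not tested.

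Ifitm3 had the highest ratio over the controls in the other cells of A2 HTN, and Bst2 in those of SS HTN. Ifitm3 had 545 CPM in A2 HTN and 375 CPM in SS HTN cells, against 35.8 CPM in control library 1 (98 UMIs) and 202 CPM in control library 2 (277 UMIs), and Bst2 had 139 CPM in A2 HTN and 167 CPM in SS HTN cells, against 12.04 CPM in control library 1 (33 UMIs) and 58.4 CPM in control library 2 (80 UMIs). The ratios over the controls were 2.51 (2.41 to 2.75) in A2 HTN and 1.98 (1.87 to 2.22) in SS HTN for Ifitm3, and 2.15 (2.01 to 2.67) and 2.40 (2.30 to 2.91) for Bst2. The levels of Rnf213, Stat2 and Parp14 hardly differed between libraries. Rnf213 had 106 CPM in A2 HTN and 100.7 CPM in SS HTN cells, against 114 CPM in control library 1 (313 UMIs) and 104 CPM in control library 2 (143 UMIs), Stat2 had 51.1 CPM in A2 HTN and 47.9 CPM in SS HTN cells, against 46.3 CPM in control library 1 (127 UMIs) and 49.6 CPM in control library 2 (68 UMIs), and Parp14 had 49.5 CPM in A2 HTN and 55.7 CPM in SS HTN cells, against 52.9 CPM in control library 1 (145 UMIs) and 47.4 CPM in control library 2 (65 UMIs). Ifit1 had 19.4 CPM in A2 HTN and 34.0 CPM in SS HTN cells, against 13.1 CPM in control library 1 (36 UMIs) and 5.11 CPM in control library 2 (7 UMIs). Ifit1 and Ddx58 were the 2 genes called lower in A2 HTN than in SS HTN other cells, at -0.68 (-1.42 to -0.23) and -0.54 (-1.16 to -0.10).

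In each library most of the genes were higher in endothelial than in other cells. The median log2 ratio of endothelial over other cells was 2.34 in A2 HTN and 2.04 in SS HTN for all 31 genes, 2.04 in control library 1 for the 26 with enough UMIs, and 2.39 in control library 2. With a ratio of 1 or more called here, 29, 27, 19 and 29 genes were called higher in endothelial cells, against 17.3%, 15.7%, 17.7% and 19% of all genes in the same libraries. The 12 markers had medians of 2.48 and 2.14 in A2 HTN and SS HTN, and 2.57 and 3.60 in control libraries 1 and 2. Scaling by the median ratio of all genes instead of totals shifted endothelial over other ratios by -0.26 in A2 HTN, -0.23 in SS HTN, 1.97 in control library 1 and 0.64 in control library 2. In control library 1 this left 9 of 26 genes called higher. The share of all genes under that scaling is not given, so the 9 are not read as a result about the listed genes. With totals, 4 of the 26 were called lower there, against 35.8% of all genes. Without tubule-rich and the deepest cells the median was 1.26 in A2 HTN and 0.55 in SS HTN, which is under the size called. Rsad2 was the most endothelial gene in A2 HTN, SS HTN and control library 2, at 3.46, 2.90 and 4.40. Rnf213 was the least in A2 HTN and level with Stat2 as the least in SS HTN, at 0.93 and 0.64, which is under the size called.

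Expressed as a share, the level of the 31 genes in other cells was 16.8% of the endothelial level in A2 HTN and 20.7% in SS HTN, against 10.8% and 11.004% in control libraries 1 and 2. The same share of the 12 markers was 16.8% and 21.4%, against 13.6% and 7.46%. The 2 lists thus lay close together in the hypertension libraries, while in control library 2 the share of the 31 genes was the larger. A gene whose share exceeds that of every marker is present in other cells beyond the range of those markers. In A2 HTN there was no such gene, in SS HTN they were Rnf213, at 63.0%, and Stat2, at 61.7%, and in control library 2 they were 11 of the 29 genes with 20 or more endothelial UMIs. Those 11 were led by Ifi27l2a at 107%, Rnf213 at 66.3%, Stat2 at 43.7% and Parp14 at 31.9%. The top of the marker range is set by Cldn5, a tight-junction gene, at 148% in A2 HTN, 54.4% in SS HTN and 20.4% in control library 2. The next markers were Egfl7 at 21.4%, Tek at 26.5% and Rasip1 at 11.4% in the same order. In A2 HTN, genes led by Rnf213, at 51.4%, and Stat2, at 49.2%, lay between Egfl7 and Cldn5. The number of genes above every marker thus depends on Cldn5.

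**Figure D3:**
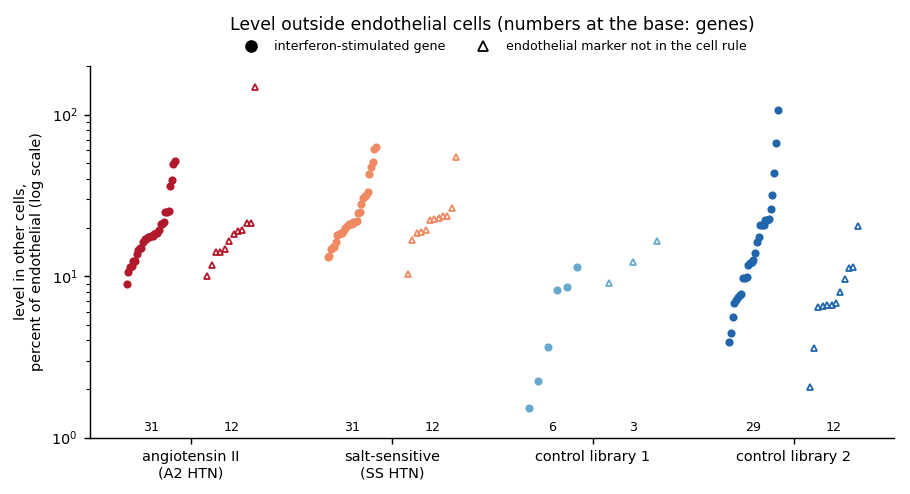
Each point gives the level of 1 gene in other cells as a percent of its level in endothelial cells of the same library, on a log axis, for genes with 20 or more endothelial UMIs (circles, interferon-stimulated genes; triangles, endothelial markers not in the cell rule). In A2 HTN and SS HTN the highest triangle is Cldn5, at 148% and 54.4%, and some circles stand above every other triangle. In control library 2 the highest circles, led by Ifi27l2a at 107%, stand above every triangle, of which Cldn5 is again the highest.

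The signal was spread over the endothelial cells and was not held by a few of them. Ranked by the share of their UMIs that came from the 31 genes, the top 5% of endothelial cells held 10.4% of those UMIs in A2 HTN (61 cells) and 11.1% in SS HTN (76 cells), against 13.1% in control library 2 (6 cells). They held 5.01%, 4.31% and 5.16% of all UMIs, so the top cells held more of the 31 genes than of all transcripts. In control library 1, 5% is 1 cell, which held 20.5%. The median endothelial cell gave 176 UMIs of the 31 genes in 10000 in A2 HTN and 129 in SS HTN, against 26.2 and 136 in control libraries 1 and 2, and 4 of 1225 A2 HTN and 3 of 1519 SS HTN cells gave none. The 25 less abundant genes were somewhat more concentrated, with 16.9% of their UMIs in the top 5% of A2 HTN and 18.8% in that of SS HTN cells, against 20.98% in control library 2.

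**Figure D4:**
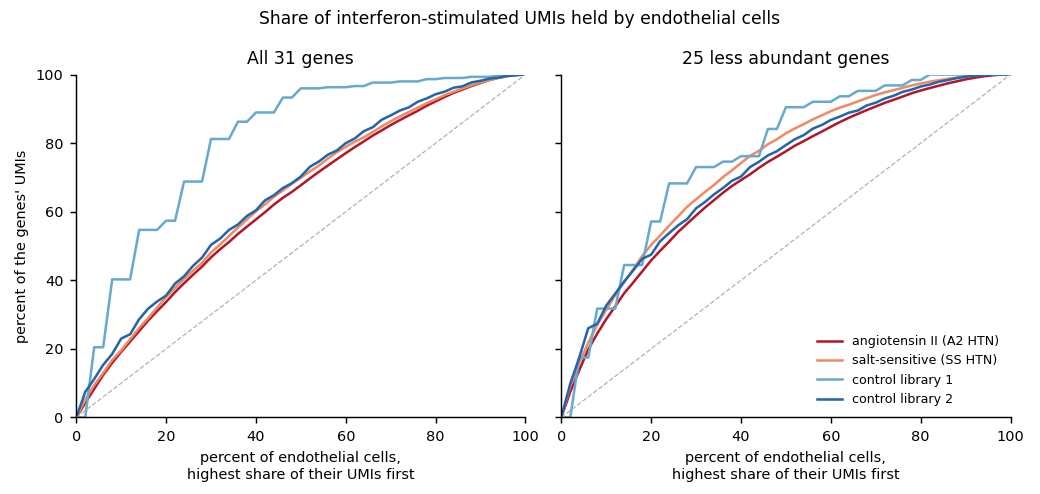
Curves give the percent of the UMIs of all 31 genes (left) or of the 25 less abundant genes (right) held by a growing percent of endothelial cells, those with the highest share of their UMIs from these genes first, and the dashed diagonal stands for equal holdings. The curves of A2 HTN, SS HTN and control library 2 run close together, with 67.7%, 69.9% and 70.3% held by the upper 50% of cells in the left panel, and the stepped curve of control library 1 rests on 19 cells.

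To compare cells at 1 depth, each was thinned to 1000 UMIs, which kept 1196 A2 HTN and 1480 SS HTN endothelial cells, against 16 and 119 in control libraries 1 and 2, and left out 29, 39, 3 and 7. The variance over the mean of the 31 genes' UMIs, which would be near 1 if all cells were alike, was 4.80 in A2 HTN and 5.27 in SS HTN, against 9.68 and 5.99 in control libraries 1 and 2. Cells thus differed among themselves in every library. UMIs of at least 5 of the 25 less abundant genes were seen in 30.3% (27.7 to 33.0) of A2 HTN and 19.3% (17.3 to 21.4) of SS HTN endothelial cells, against 17.6% (11.3 to 25.7) in control library 2 and 0 of 16 cells in control library 1, which allows up to 20.6%. Among other cells at the same thinned depth the shares were 1.94% and 1.70%, against 0.0880% and 1.23%. Cells with 10 or more were few, 3.43% (41 cells) in A2 HTN and 1.96% (29 cells) in SS HTN, against 4.20% (5 cells) in control library 2, and their intervals overlapped between A2 HTN and control library 2. By gene, Isg15 gave a UMI in 19.1% of thinned A2 HTN cells, where an even spread of its UMIs would give 26.2%, and in 17.3% of SS HTN cells, where it would give 22.6%. Ifit3 gave 17.7% against 20.9% if even in A2 HTN and 8.92% against 11.8% in SS HTN, and Ly6e gave 90.1% against 95.4% and 84.2% against 90.1%. The share of cells lay under that of an even spread for all 3 genes in both hypertension libraries, by the most for Isg15 in A2 HTN.

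Endothelial cells were next sorted by marker panels of peritubular capillary (Igfbp3, Npr3, Esm1, Plvap), glomerular (Ehd3, Plat, Pi16) and arterial (Gja4, Sox17, Fbln5) endothelium. A cell takes the class of the panel with at least 3 UMIs and more than either other, so a class is a range of a score and not a cell type. Of the cells in a class, 33 of 1174 in A2 HTN, 122 of 1327 in SS HTN, 0 of 7 in control library 1 and 2 of 115 in control library 2 lay 1 UMI from the limit. Capillary-class cells held 20158 CPM of the 31 genes in A2 HTN and 16420.2 CPM in SS HTN, against 20039 CPM in control library 1 (5 cells) and 16572 CPM in control library 2 (99 cells). Arterial-class cells held 14789 CPM in A2 HTN and 12135 CPM in SS HTN, and control libraries 1 and 2 had 0 and 1 such cells. Glomerular-class cells held 9315 CPM in A2 HTN and 6727 CPM in SS HTN, against 3419 CPM in control library 1 (2 cells) and 7286 CPM in control library 2 (15 cells). The capillary level was thus the highest and the glomerular level the lowest of the 3 classes in both hypertension libraries.

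By gene, 30 of the 31 were highest in the capillary class in A2 HTN, and likewise 30 in SS HTN, with Ifi27l2a the exception in both. The capillary, arterial and glomerular classes held 1047, 75 and 52 cells in A2 HTN, and 895, 215 and 217 in SS HTN. The share of all genes highest in the capillary class is not given, so whether this is particular to the 31 was not tested. Ifi27l2a had 518 CPM in arterial, 188 in capillary and 42.3 in glomerular cells of A2 HTN, and 552, 382 and 96.3 CPM in those of SS HTN. Rsad2 had 2300.5 CPM in capillary, 996 in arterial and 307 in glomerular cells of A2 HTN, and 1961, 569.6 and 368 CPM in those of SS HTN. AW112010 had 498, 112 and 47.6 CPM in the same order in A2 HTN, and 441, 82.0 and 27.3 CPM in SS HTN. Rsad2 and AW112010 were thus several-fold higher in capillary than in glomerular cells, whereas Ly6e differed less, with 3263 and 1927 CPM in A2 HTN and 2566 and 1515 CPM in SS HTN.

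Within each of the 3 classes the A2 HTN level was the higher one. The summed log2 ratio of A2 HTN over SS HTN was 0.30 (0.28 to 0.31) in capillary cells, 0.29 (0.23 to 0.34) in arterial cells and 0.47 (0.39 to 0.55) in glomerular cells. By gene, 29 of 31, 20 of 31 and 21 of 26 described were higher in A2 HTN, against 48.6%, 49.1% and 50.4% of all genes described. In cells of no class the ratio was -0.47 (-0.57 to -0.37), with tubule markers at 7469.6 CPM in the 51 A2 HTN cells and 2404 CPM in the 192 SS HTN cells. Over control library 2, capillary cells gave 0.28 (0.24 to 0.33) in A2 HTN and -0.01 (-0.06 to 0.03) in SS HTN. The 5 capillary cells of control library 1, at 20039 CPM (17164 to 23258), lay level with those of A2 HTN and above those of SS HTN.

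**Figure D5:**
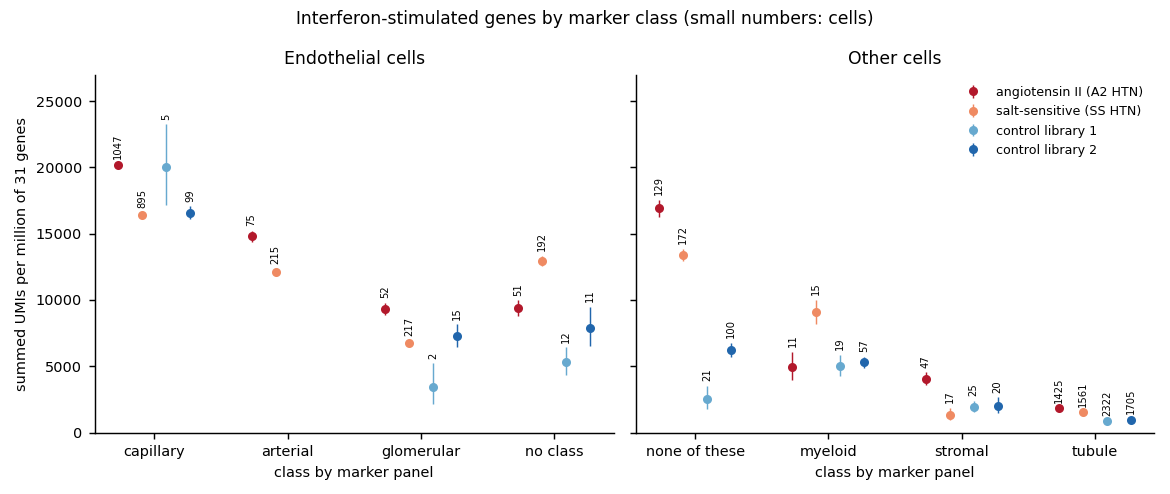
Points give the summed level of the 31 genes in CPM by marker class and library, with exact Poisson 95% intervals as bars and the number of cells above each point, for endothelial cells (left) and other cells (right); a class with fewer than 2 cells is not drawn. Capillary cells are highest and glomerular cells lowest of the named endothelial classes in A2 HTN and SS HTN, and other cells of no panel stand above tubule cells in every library.

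Other cells were sorted by tubule, stromal and myeloid markers in the same manner. Tubule-class cells made up most of them and held 1822 CPM of the 31 genes in A2 HTN and 1554 CPM in SS HTN, against 870.5 and 971 CPM in control libraries 1 and 2. Their endothelial markers outside the rule moved alongside, at 1695 and 1479.8 CPM in A2 HTN and SS HTN, against 850.1 and 879 CPM. Cells of no panel held 16922 CPM in A2 HTN (129 cells) and 13397 CPM in SS HTN (172 cells), against 2512 CPM in control library 1 (21 cells) and 6197 CPM in control library 2 (100 cells). Those markers stood at 7729 and 7624 CPM in the cells of no panel of A2 HTN and SS HTN, against 2142 and 2871 CPM, so the order of the libraries was like that of the 31 genes. Myeloid-class cells, which carry 7 of 16 listed myeloid markers in these tables, numbered 11 in A2 HTN and 15 in SS HTN, against 19 and 57 in control libraries 1 and 2. They held 4924 and 9062 CPM, against 5007 and 5295 CPM. In them Ifi27l2a reached 515 CPM in A2 HTN and 1177 CPM in SS HTN, against 1302 and 752 CPM in control libraries 1 and 2, and AW112010 reached 847 CPM in control library 2. Myeloid markers summed to 237 CPM in A2 HTN and 255 CPM in SS HTN other cells, against 265 and 1112 CPM, which stands beside the high share of Ifi27l2a in other cells of control library 2. Their part in that share was not tested.

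The genes upstream of the response were then described in endothelial cells from lists of the pathway. Of the interferon receptors 5 of 6 were held. In A2 HTN over the controls 0 were called in either direction, against 11.8% of all genes called higher and 14.2% lower. Ifnar2 had 538 CPM in A2 HTN and 307 CPM in SS HTN cells, against 175 CPM in control library 1 (6 UMIs) and 449 CPM in control library 2 (154 UMIs), with ratios of 0.34 (0.11 to 0.58) in A2 HTN and -0.46 (-0.71 to -0.22) in SS HTN over the controls and 0.80 (0.71 to 0.91) between the models. Ifnar1, the partner chain, had 142 CPM in A2 HTN and 139 CPM in SS HTN cells, against 58.2 CPM in control library 1 (2 UMIs) and 105 CPM in control library 2 (36 UMIs), and it was level between the models at 0.03 (-0.13 to 0.19). Ifngr2 had 74.7 CPM in A2 HTN and 45.4 CPM in SS HTN cells, against 0 UMIs in control library 1 and 93.3 CPM in control library 2 (32 UMIs), and Ifngr1 had 151 CPM in A2 HTN and 109.7 CPM in SS HTN cells, against 58.2 CPM in control library 1 (2 UMIs) and 175 CPM in control library 2 (60 UMIs). The gamma receptor genes were the 2 of 5 called lower in SS HTN over the controls, at -0.83 (-1.45 to -0.31) and -0.56 (-0.97 to -0.17). Of all genes 13.7% were called lower there. All 5 receptor genes were higher in A2 HTN than in SS HTN, with 2 called, against 5.27% of all genes.

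Of the 8 JAK and STAT genes, which encode the kinases on the receptors and the factors they phosphorylate, 2 were called higher and 0 lower in A2 HTN over the controls, and likewise in SS HTN, where 11.8% and 13.9% of all genes were called higher. Between the models 0 were called in either direction, against 5.27% of all genes called higher and 9.83% lower. Stat5a, at 0.39 (-0.09 to 1.5003), differed most in that comparison.

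The feedback inhibitors and the sensing genes were described next. Of 9 inhibitors described, 1 was called higher in A2 HTN over the controls and 0 lower, and 1 was called in each direction in SS HTN, shares near or under those of all genes given above. Trim24, which in mouse liver restrains interferon signalling, gave a log2 ratio of -0.11 in A2 HTN over the controls. Pias4, which restrains STAT signalling, gave 0.36 in A2 HTN over SS HTN. Of 13 genes of nucleic acid sensing, 2 were called higher and 1 lower in A2 HTN over the controls, where 11.8% and 14.2% of all genes were, and 0 of 12 were called higher and 1 lower in SS HTN. These shares too lay near or under those of all genes. Trim25, the ligase that activates RIG-I, had 129.8 CPM in A2 HTN and 95.1 CPM in SS HTN cells, against 58.2 CPM in control library 1 (2 UMIs) and 93.3 CPM in control library 2 (32 UMIs). Its ratio in A2 HTN over the controls was 0.50 (0.03 to 1.07). Myd88, the adaptor of Toll-like receptors, was the 1 of 13 called between the models, at 0.68 (0.40 to 1.31), where 5.27% of all genes were called higher. Tbk1, the kinase that activates IRF3, gave 0.49 (0.30 to 0.76). Among other interferon regulatory factors and their partners, 0 were called between the models, with Irf2, a repressor of the response, at -0.27 (-0.40 to -0.16), and Irf2bpl, a relative of an IRF2-binding protein, gave 0.39 in A2 HTN over the controls. Of the 6 described, 1 was called lower over the controls in both models. This was Irf8, a transcription factor of myeloid cells, named after its values were seen, at -0.62 in A2 HTN and -0.66 in SS HTN.

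A wider list of 74 other interferon-stimulated genes, of which 52 were held, followed the 31. In A2 HTN over the controls 44 of 52 were higher and 10 were called higher and 0 lower, against 11.8% and 14.2% of all genes, with a median of 0.23. In SS HTN over the controls 18 of 51 were higher and 2 were called higher and 7 lower, against 13.9% and 13.7%, with a median of -0.14. Between the models 47 of 52 were higher in A2 HTN and 17 were called higher and 0 lower, against 5.27% and 9.83%, with a median of 0.40. The list was chosen with results of these data known and does not stand as independent support. Slfn2 had 238 CPM in A2 HTN and 148 CPM in SS HTN cells, against 29.1 CPM in control library 1 (1 UMI) and 137 CPM in control library 2 (47 UMIs), and its ratio in A2 HTN over the controls was 0.88 (0.49 to 1.35). Lgals3bp, a secreted galectin-binding protein, gave 0.57 (0.11 to 1.13) there. Tgtp2, a further immunity-related GTPase with a near-identical copy, had 73.3 CPM in A2 HTN and 32.5 CPM in SS HTN cells, against 0 UMIs in control library 1 and 55.4 CPM in control library 2 (19 UMIs), and it gave 1.06 (0.88 to 1.47) between the models. Psmb10, a subunit of the immunoproteasome, had 342 CPM in A2 HTN and 172 CPM in SS HTN cells, against 116 CPM in control library 1 (4 UMIs) and 361 CPM in control library 2 (124 UMIs), and Tap1, which carries peptides to MHC class I, had 81.4 CPM in A2 HTN and 39.1 CPM in SS HTN cells, against 0 UMIs in control library 1 and 75.8 CPM in control library 2 (26 UMIs). Both were lower in SS HTN than in A2 HTN cells and control library 2, with 0.97 (0.87 to 1.12) and 0.97 (0.79 to 1.33) in A2 HTN over SS HTN, and Psmb10 gave -0.96 (-1.26 to -0.70) in SS HTN over the controls. Trim30a had 247 CPM in A2 HTN and 348 CPM in SS HTN cells, against 495 CPM in control library 1 (17 UMIs) and 169 CPM in control library 2 (58 UMIs). Control library 1 was the highest, and the ratio of 0.79 (0.47 to 1.16) in SS HTN over the summed controls rests on control library 2.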

How the data were processed

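Genome build mm10, Seurat 4.1 and Cell Ranger 7.0.0 stand in the submitters' processing notes without a role for each. The values the authors deposited are raw UMI counts, as their whole numbers and unequal totals show. The sources used here do not say how cells were filtered or where reads of near-identical copies went, so counts of Ifitm2 and Ifitm3, Ifit3 and Ifit3b, or the Gbp genes are uncertain. Of the 4 tables, the separate A2 HTN, SS HTN and control tables were used (12608, 12039 and 11669 genes), and the joined hypertension table served as an alternative. All counts of cells, UMIs and levels came from them with Python 3.11.15, numpy 2.4.6, pandas 2.3.3, scipy 1.17.1 and matplotlib 3.10.9. The arithmetic was checked on simulated data.

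Counts were summed per cell set and library and scaled to 1000000 over the 11049 shared genes. The library totals were 7479337 UMIs in A2 HTN and 6471741 in SS HTN, against 2801925 and 1727731 in control libraries 1 and 2. Intervals are exact Poisson for CPM, exact binomial for shares and exact conditional binomial for ratios, and 3' UMIs give no length bias to correct. With 1 library per group no test was made. No doublet caller was run, and leaving out cells with 100 or more tubule UMIs in 10000 or in the top 2% of UMIs was an alternative. The endothelial rule left 39, 115, 9 and 4 endothelial cells at its limit of 3 UMIs in A2 HTN, SS HTN, control library 1 and control library 2. The members, roles, pathway lists and rules were chosen with earlier results of these data known. All 31 genes are named with values in every library, and from each pathway list up to 3 genes with the largest ratio in size among those with 20 or more UMIs in both sums. A further gene of these lists is not reported here. The classes of other cells, and the alternative without myeloid-class cells, were chosen after seeing the data. Promoters came from RefSeq tables of GRCm38.p6.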

Additional observations from a re-analysis of the deposited data

Results flagged for a closer look

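In 4 genes the endothelial cells of the models lay on opposite sides of the summed controls with both counting intervals clear of 0. Iigp1 gave a log2 ratio of 0.43 in A2 HTN and -0.42 in SS HTN over the controls. Ifitm3 gave 0.41 in A2 HTN and -0.29 in SS HTN. Rsad2 gave 0.41 and -0.20, and Ifitm2 gave 0.15 and -0.28. The SS HTN sign of all 4 rests on control library 2. Without it the SS HTN ratio was 1.53 for Iigp1, 0.36 for Ifitm3, 0.93 for Rsad2 and 0.54 for Ifitm2, so that both models then lay above the controls. With a looser endothelial rule it was 0.03 for Ifitm3, 0.13 for Rsad2 and 0.05 for Ifitm2. The difference between the models was not tested in any of them, since each model is 1 library, and both ratios of a gene share the same control cells.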

How the results depend on the processing

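With 1 library per group, intervals cover counting error only, and control library 2 sets most ratios over the controls. No paired analysis was possible because each group is 1 library and the control libraries are not mapped to a model. Of 350 medians and counts under the alternatives, 297 moved by less than their limit and 53 by more, and of 1240 ratios of single genes 1095 moved by less than theirs. The sign turned in 65 of the 1240, 13 in A2 HTN and 49 in SS HTN over the controls and 3 in A2 HTN over SS HTN, all 3 of Bst2, and 21 of the 65 were turned by leaving out control library 2. Without control library 2, the A2 HTN over controls median was 1.36 and the SS HTN one 0.89. Called higher were 28 and 22 genes, against 41.1% and 40.1% of all genes. In 6 of the 65 the ratio had been called, and all 6 came without control library 2. These were Ifi27l2a, at -0.98 in A2 HTN and -0.15 in SS HTN, and in SS HTN Igtp at 3.17, Irgm1 at 1.01, Ifi35 at 4.28 and AW112010 at 1.66. The ratios of Igtp and Ifi35 are then against 0 UMIs and depend on the 5 CPM added. Without control library 1, 7 genes were called lower in SS HTN over the controls, against 12.1% of all genes. The 13 genes called higher in A2 HTN over the controls became 8 without tubule-rich and the deepest cells, against 16.8% of all genes. In capillary-class cells they became 7, against 15.8%. With a looser endothelial rule, which took control library 1 from 19 to 87 endothelial cells, the count was 25. The 1 called in SS HTN became 3 with the looser rule, 2 at 1000 UMIs a cell, 2 in capillary-class cells and 3 without the top 5% of cells. The share of all genes called is not given for these SS HTN counts or for the 25. They are therefore not read as results about the 31 genes. The SS HTN median of -0.15 was 0.13 with the looser rule. The A2 HTN over SS HTN median of 0.47 was 0.42 at 1000 UMIs a cell, 0.40 as a mean over cells and 0.28 in capillary-class cells. The endothelial over other median was 1.28 in A2 HTN and 1.03 in SS HTN with a stricter rule. Without tubule-rich and the deepest cells it was 1.26 in A2 HTN and 0.55 in SS HTN, against 4.19 in control library 1 (9 genes) and 1.68 in control library 2. The share of the top 5% of cells was 11.6% in A2 HTN, 13.3% in SS HTN and 14.9% in control library 2 at 1000 UMIs a cell, and 11.4% in SS HTN and 10.6% in control library 2 without Ly6a. The cause of these shifts was not tested.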
